A study of Mus musculus with 6 samples.

Results

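The 10 genes described here encode the cyclins, the cyclin-dependent kinases (CDKs) and the CDK inhibitors that govern the passage from G1 into S phase. They are the D-type cyclins *Ccnd1*, *Ccnd2* and *Ccnd3*, the E-type cyclins *Ccne1* and *Ccne2*, the kinases *Cdk4* and *Cdk6*, and the inhibitors *Cdkn1a*, *Cdkn1b* and *Cdkn2c*. They are listed by name, with no threshold on their values, and all 10 were present among the 46983 genes of the expression table. Bulk RNA-seq had been performed on splenic B cells of WT and *Hif1a* KO mice, with 3 libraries per genotype. *Hif1a* encodes the oxygen-regulated subunit of the transcription factor HIF-1. The comparison asks which genes differ between *Hif1a* KO and WT B cells while they switch to IgA.

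The libraries of both genotypes had the same culture conditions. Cells were kept for 3 days with LPS at 5 μg/ml and with BAFF, IL-5 and TGF-β, each at 10 ng/ml. LPS drives the division of B cells and BAFF keeps them alive, whereas TGF-β and IL-5 promote the switch to IgA. The KO mice carried 2 floxed *Hif1a* alleles and cre under the control of *Mb1* (*Cd79a*), whose activity is restricted to the B-cell lineage. WT mice were littermates, with cre and 1 floxed allele or with 2 floxed alleles and no cre. The genotype behind each WT library is not stated in the labels. The labels do not say whether replicates were separate animals or cultures, so p-values measure the spread between these libraries, which may be technical.

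In the G1 phase, D-type cyclins bind CDK4 and CDK6, and the active kinases phosphorylate the retinoblastoma protein, which releases E2F transcription factors. Cyclin E with CDK2 then carries the cell into S phase. The CIP/KIP inhibitors p21 (*Cdkn1a*) and p27 (*Cdkn1b*) bind cyclin-CDK complexes, while the INK4 inhibitor p18 (*Cdkn2c*) binds CDK4 and CDK6 themselves. Activated B cells rely on cyclin D2 and cyclin D3, *Cdkn1a* is a classical target of the tumour suppressor p53, and *Cdkn2c* is known for its part in the cell cycle exit of plasma cells.

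The values are FPKM, read counts scaled for the length of a gene and for the depth of a library. Where 3 values are listed for a genotype, they stand in the order of replicates 1, 2 and 3. Depth, read back from the values, was 25030210 to 37222477 reads per library. The libraries of one genotype did not lie together. A principal component that held 54.7% of the variance placed WT replicates 2 and 3 at −26.2 and −25.9 and placed WT replicate 1 at 15.7, among the KO libraries (7.10 to 19.5). Results that rest on this are given with and without WT replicate 1. That library was singled out from these same values, and leaving it out keeps only WT replicates 2 and 3, which lay together. The p-values and counts without WT replicate 1 are therefore a description and not independent evidence. The *Hif1a* FPKM was 36.5, 49.8 and 45.8 in WT and 46.5, 45.6 and 52.8 in KO libraries, a count over all exons that does not check the deletion. All 8 B-cell markers were above 1 FPKM in every library, with a summed FPKM of 3060 to 3935 in WT and 3069 to 4102 in KO libraries.

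Differences were tested with limma on log2(FPKM + 1) over the 13312 genes whose FPKM averaged at least 0.5, so a log2 fold change of KO over WT is on that scale and understates the change of low genes. Of the 10 genes, 9 passed this filter, and *Ccnd1* did not. None of the 9 differed between the genotypes at a Benjamini-Hochberg adjusted p under 0.05 (0 of 9), and neither did any other gene (0% of the 13312 genes). At an unadjusted p under 0.05, *Cdkn1a* was the 1 member counted, beside 6.98% of all genes tested. With voom on recovered reads the adjusted count was also 0, and the unadjusted count was again 1, *Cdkn1a*, beside 830 of the 13312 genes. In bulk samples, fewer cells of a type and less RNA per cell cannot be told apart.

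The members did not share one pattern. *Cdkn1a*, *Cdk6* and *Ccne2* were high in WT replicates 2 and 3 and low in WT replicate 1 and all 3 KO libraries. In *Ccnd2*, *Ccnd3*, *Ccne1*, *Cdk4*, *Cdkn1b* and *Cdkn2c* the highest library was 1.14 to 1.28 times the lowest, and *Cdkn1b* was lowest in WT replicates 2 and 3. The fitted log2 fold change was below 0 in 8 of the 9 members, beside 57.9% of all genes tested, with a median of −0.14 over the members and −0.028 over all genes.

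**Figure D1:**
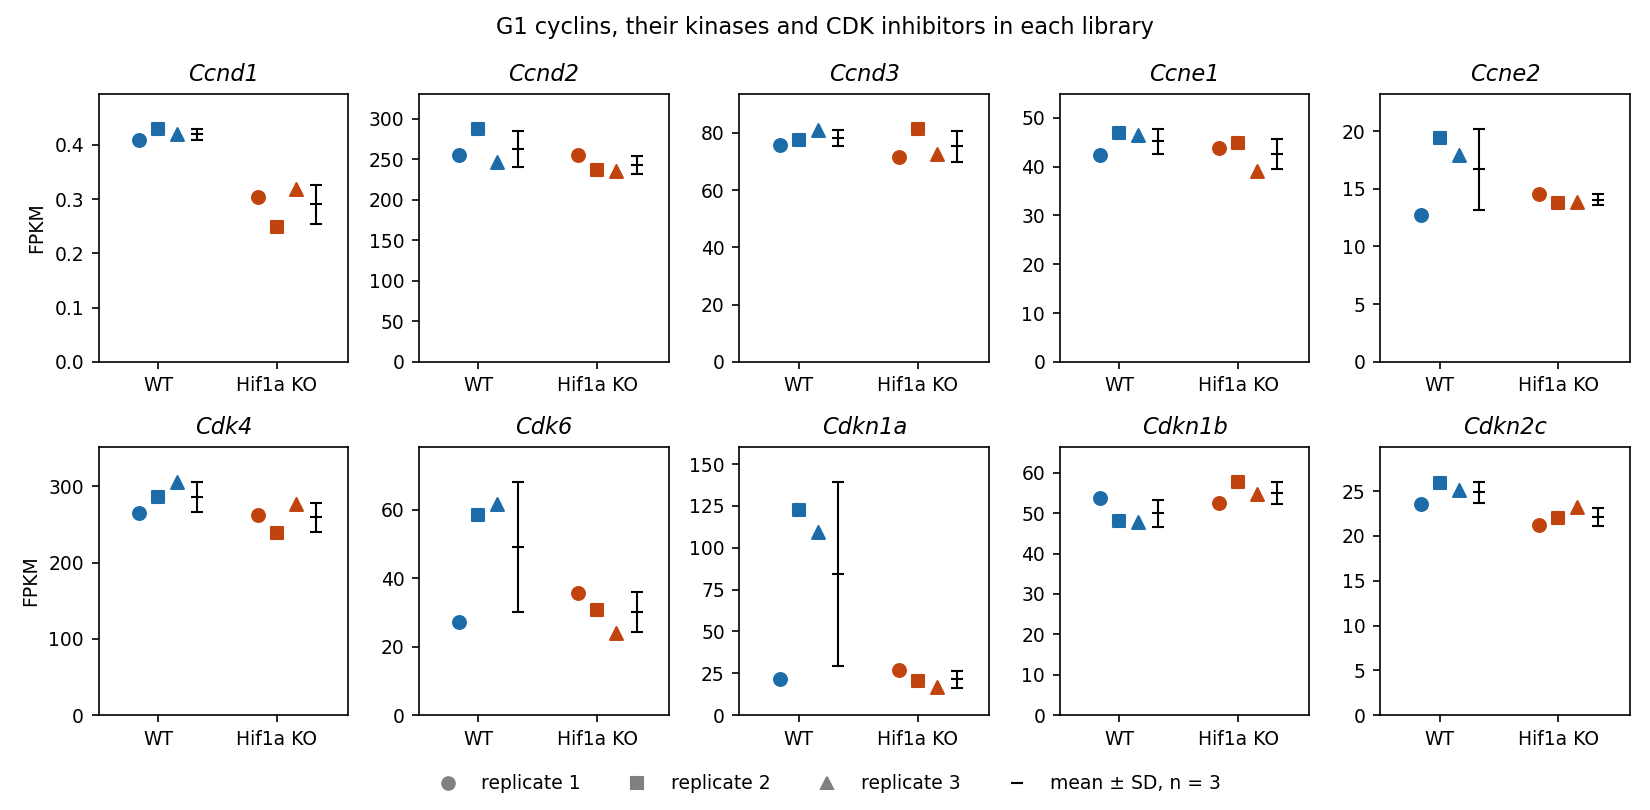
FPKM of the 10 genes (vertical axes, each from 0) in the 3 WT (blue) and 3 *Hif1a* KO (orange) libraries, with the mean and SD of each group beside the points. *Cdkn1a* lies between 16.9 and 26.7 FPKM in 4 libraries and at 110 and 122 FPKM in WT replicates 3 and 2. The genotypes overlap in *Cdkn1a* through WT replicate 1, and also in *Ccnd2*, *Ccnd3*, *Ccne1*, *Ccne2*, *Cdk4*, *Cdk6* and *Cdkn1b*.

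Among the D-type cyclins, *Ccnd2* was the abundant one. *Ccnd2* (ENSMUSG00000000184, chromosome 6, 127125162 to 127152193, minus strand, mm10) had an FPKM of 255, 288 and 246 in WT and 255, 236 and 236 in KO libraries. WT replicate 2 was highest and the other 5 libraries lay close together, so the groups overlapped. KO differed from WT by −0.11 on the log2 scale (SE 0.08, limma with Benjamini-Hochberg adjustment, adjusted p = 0.653).

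*Ccnd3* (ENSMUSG00000034165, chromosome 17, 47505051 to 47599691, plus strand) encodes cyclin D3, which dividing germinal centre B cells require. Its FPKM was 75.8, 77.4 and 81.1 in WT and 71.5, 81.5 and 72.7 in KO libraries. KO replicate 2 was the highest of all 6 libraries and KO replicate 1 the lowest. A log2 fold change of −0.055 was fitted (95% interval −0.22 to 0.11, SE 0.07, limma, adjusted p = 0.789).

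*Ccnd1* (ENSMUSG00000070348, chromosome 7, 144929931 to 144939925, minus strand) was near the limit of detection. Its FPKM was 0.408, 0.430 and 0.421 in WT and 0.304, 0.249 and 0.318 in KO libraries, which rested on 32, 28 and 23 reads and on 16, 18 and 20 reads. Each KO value was below each WT value. With a mean FPKM under 0.5 the gene was not in the main test. In the fit over all genes above 0 in at least 1 library, its log2 fold change was −0.14 (SE 0.04, limma with Benjamini-Hochberg adjustment, adjusted p = 0.727), and KO was below WT throughout in 5.56% of the genes of that fit. *Ccnd1* shares exon sequence on the opposite strand with *LTO1*, at 16.1 to 19.0 FPKM, and the strand setting of the counting is not given in the sources used here, so reads of the pair cannot be told apart.

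The make-up of the D-type cyclins was alike in the 6 libraries. *Ccnd2* held 74.3 to 78.7% of the summed D-cyclin FPKM, *Ccnd3* held 21.2 to 25.6% and *Ccnd1* held 0.0783 to 0.128%. For n = 3 each, the sum was 341 ± 21.0 FPKM (SD) in WT and 318 ± 9.07 FPKM (SD) in KO libraries. A level set against that of another gene depends on the length the authors used, and the lengths recovered from the values, 871 to 2954 bases for the members, were shorter than the 2662 to 13989 bases of merged exons in GENCODE.

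The E-type cyclins, which pair with CDK2, differed from each other in their pattern. *Ccne1* (ENSMUSG00000002068, chromosome 7, 38097984 to 38107534, minus strand) had an FPKM of 42.3, 46.9 and 46.5 in WT and 43.8, 44.9 and 39.1 in KO libraries. The lowest value was that of KO replicate 3, and the 2 groups overlapped. Its log2 fold change of −0.085 (SE 0.08, limma, adjusted p = 0.710) was within the spread of the libraries.

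*Ccne2* (ENSMUSG00000028212, chromosome 4, 11191351 to 11204779, plus strand) was the less abundant E-type cyclin, at 23.1 to 29.3% of their sum. Its FPKM was 12.7, 19.4 and 17.9 in WT and 14.6, 13.7 and 13.9 in KO libraries. WT replicates 2 and 3 were above all other libraries, and WT replicate 1 was the lowest of all. The fit gave −0.21 on the log2 scale (SE 0.15, limma, adjusted p = 0.658). It gave −0.39 (SE 0.07, limma, adjusted p = 0.0288) without WT replicate 1 and −0.097 without WT replicate 2. *Ints8*, on the opposite strand with shared exon sequence, had 26.0 to 29.2 FPKM with no such split.

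Of the 2 kinases that D-type cyclins activate, *Cdk4* was much the more abundant. *Cdk4* (ENSMUSG00000006728, chromosome 10, 127063534 to 127067920, plus strand) had the highest mean FPKM of the 10 genes in both genotypes, 286 ± 20.1 (SD) in WT and 259 ± 19.0 (SD) in KO for n = 3 each. Single libraries had 266, 286 and 306 FPKM in WT and 263, 239 and 277 FPKM in KO. The groups overlapped, since KO replicate 3 lay above WT replicate 1. The difference was −0.14 on the log2 scale (SE 0.08, limma, adjusted p = 0.632).

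*Cdk6* (ENSMUSG00000040274, chromosome 5, 3341485 to 3531008, plus strand) showed the split between WT libraries. Its FPKM was 27.2, 58.5 and 61.6 in WT and 35.7, 30.7 and 23.9 in KO libraries, on 2106 to 5349 reads. WT replicates 2 and 3 lay above all other libraries, while WT replicate 1 lay below KO replicates 1 and 2. With all libraries the log2 fold change was −0.62 (95% interval −1.37 to 0.13, SE 0.31, limma, adjusted p = 0.626). Leaving out WT replicate 1 made it −0.99 (SE 0.16, limma, adjusted p = 0.0203), and leaving out WT replicate 3 made it −0.42.

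The share of *Cdk6* in the summed FPKM of the 2 kinases followed the same libraries. It was 9.29, 17.0 and 16.8% in WT and 11.96, 11.4 and 7.94% in KO libraries. *Cdk4* made up most of the kinase signal in every library.

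The CIP/KIP inhibitor *Cdkn1a* varied most among the 10 genes, with a highest value 7.25 times its lowest. *Cdkn1a* (ENSMUSG00000023067, chromosome 17, 29090976 to 29100727, plus strand) encodes p21, which holds cyclin-CDK complexes inactive after DNA damage and other stress. Its FPKM was 21.6, 122 and 110 in WT, on 943, 4443 and 3337 reads. In KO libraries it was 26.7, 20.4 and 16.9, on 784, 822 and 591 reads. The KO libraries and WT replicate 1 thus lay together, far below WT replicates 2 and 3.

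For n = 3 each, the mean was 84.6 ± 54.9 FPKM (SD) in WT and 21.3 ± 4.99 FPKM (SD) in KO libraries, and the log2 fold change was −1.62 (SE 0.62, 95% interval −3.10 to −0.14). The unadjusted p was 0.0357, and limma with Benjamini-Hochberg adjustment gave an adjusted p of 0.626. An exact permutation test of 3 against 3 libraries could not give a two-sided p below 0.1. The log2 fold change became −2.41 (SE 0.18, limma, adjusted p = 0.0030) without WT replicate 1 and −1.19 without WT replicate 2.

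The promoter of *Cdkn1a* is shown because its pattern was shared by p53 target genes, described further on. RefSeq promoter windows (GRCm38.p6), which run from 250 bases before to 50 bases after a gene's start, covered 7 of the 10 genes. The stretch below comes from the window at the first listed start and ends before the first GENCODE exon of the gene. It lies on the plus strand at chr17:29090729-29090975. Capitals mark 2 full matches to the letters of a p53 half-site, each 10 bases long and parted by 12 bases. The 10 bases directly after the second match miss these letters only at their first base. They were not marked, so the capitals need not show the spacing of a p53 response element.
*Cdkn1a*: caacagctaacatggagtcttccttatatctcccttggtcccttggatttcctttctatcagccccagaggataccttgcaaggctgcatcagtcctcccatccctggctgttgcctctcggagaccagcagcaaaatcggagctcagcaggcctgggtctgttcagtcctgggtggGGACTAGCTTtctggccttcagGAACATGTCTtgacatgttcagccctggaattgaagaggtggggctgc
The marked pair ended 41 bases before the listed start. On either strand, a pair of half-sites of the p53 consensus with at most 13 bases between them was present in 24 of 32851 windows (0.0731%), and the window shown was the 1 among the 10 windows of the members. A single half-site was present in 8.36% of all windows. A match of letters is a description and not a binding site, and a missing match says only that these letters are not in the window.

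The other CIP/KIP inhibitor, *Cdkn1b* (ENSMUSG00000003031, chromosome 6, 134920401 to 134925513, plus strand), encodes p27, which is high in resting lymphocytes and is degraded as they enter the cycle. It ran opposite to *Cdkn1a*. Its FPKM was 53.9, 48.04 and 47.9 in WT and 52.5, 57.8 and 54.7 in KO libraries. WT replicates 2 and 3 were the lowest 2 libraries, and WT replicate 1 lay within the KO range. KO was 0.14 above WT on the log2 scale (SE 0.07, limma, adjusted p = 0.626), and 0.19 (SE 0.06, limma, adjusted p = 0.105) without WT replicate 1.

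The INK4 inhibitor *Cdkn2c* (ENSMUSG00000028551, chromosome 4, 109660876 to 109667189, minus strand) was the 1 of 9 members tested whose groups did not overlap, beside 10.1% of all genes tested. Its FPKM was 23.6, 25.9 and 25.2 in WT and 21.2, 21.9 and 23.2 in KO libraries. KO was below WT throughout, as for 6.03% of all genes (4.06% had KO above WT), with a narrow margin between KO replicate 3 and WT replicate 1. The log2 fold change was −0.16 (SE 0.07, limma, unadjusted p = 0.0546, adjusted p = 0.626), and it was between −0.20 and −0.13 with any 1 library left out.

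**Figure D2:**
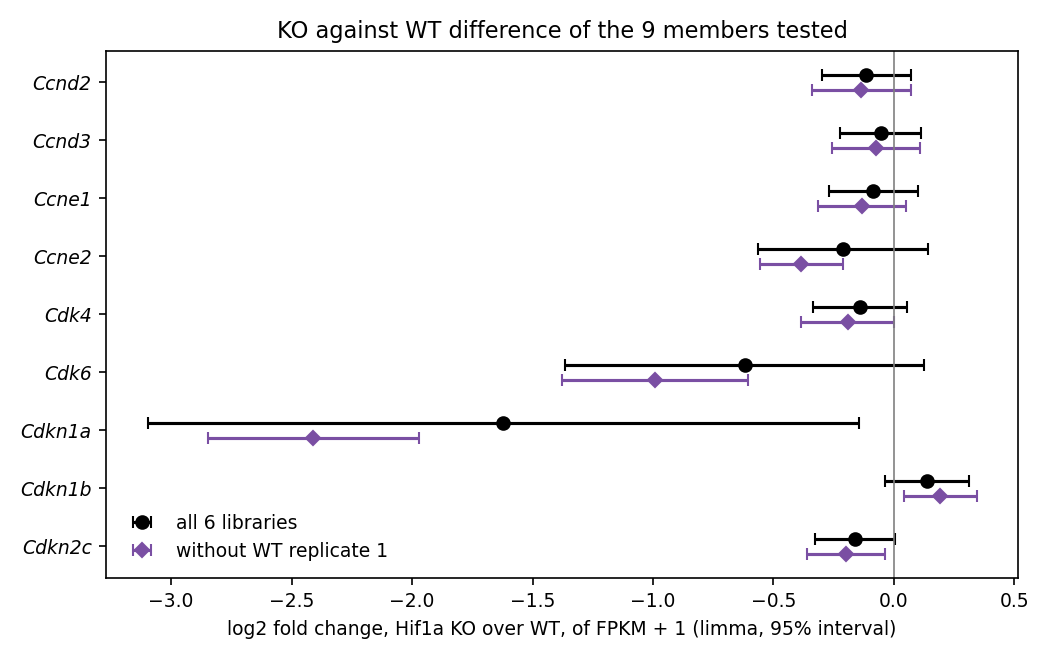
Log2 fold change of *Hif1a* KO over WT on the log2(FPKM + 1) scale (horizontal axis) for the 9 members tested, with 95% intervals from limma, for all 6 libraries (circles) and without WT replicate 1 (diamonds). The interval of *Cdkn1a* narrows from −3.10 to −0.14 with all libraries to −2.85 to −1.97 without WT replicate 1. Those of *Cdk6*, *Ccne2* and *Cdkn2c* then lie below 0, and that of *Cdkn1b* lies above 0.

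Leaving out WT replicate 1 was a choice made from these values. *Cdkn1a*, *Cdk6* and *Ccne2* were then lower in KO libraries at an adjusted p under 0.05 (limma). This is 3 of 9 members, beside 9.4% of all genes (5.75% lower and 3.64% higher) in that fit. The groups then did not overlap in 7 of 9 members, beside 50.5% of all genes. With library weights estimated from the data, in which WT replicate 1 had the lowest weight, 0.238, *Cdkn1a* and *Cdk6* were called (2 of 9, limma), beside 10.9% of all genes. In the 17 fits made, the direction of each of the 9 members was the same.

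The make-up of the inhibitors differed between the libraries as *Cdkn1a* did. Of the summed FPKM of *Cdkn1a* and *Cdkn1b*, *Cdkn1a* made up 28.6, 71.8 and 69.6% in WT and 33.7, 26.1 and 23.6% in KO libraries. *Cdkn1b* was the leading inhibitor in 4 libraries and *Cdkn1a* in WT replicates 2 and 3. The summed FPKM of the 3 inhibitors was 99.0, 196 and 183 in WT and 100.4, 100.1 and 94.9 in KO libraries. Set against the summed FPKM of *Cdk4* and *Cdk6*, it came to 33.8, 56.9 and 49.7% in WT and 33.6, 37.1 and 31.6% in KO libraries.

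**Figure D3:**
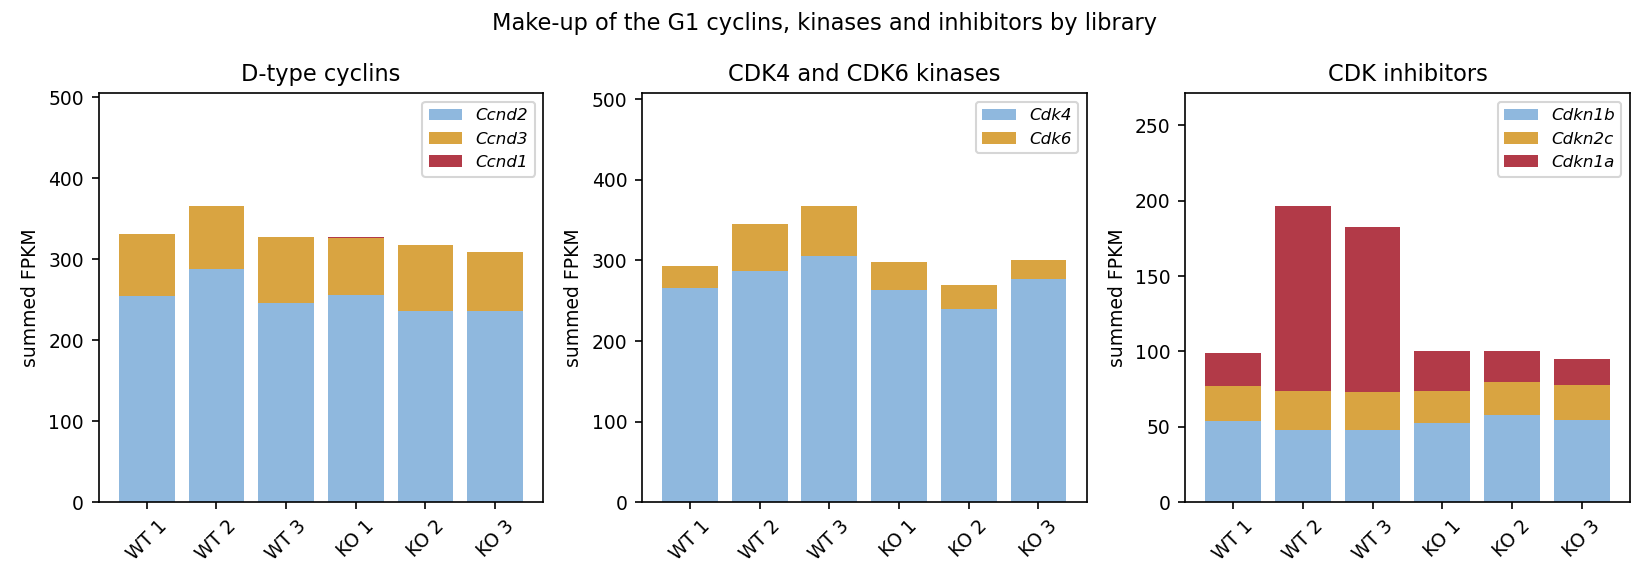
Summed FPKM (vertical axes, from 0) of the D-type cyclins, of *Cdk4* and *Cdk6*, and of the CDK inhibitors in each library, stacked by gene. The D-cyclin bars are alike in the 6 libraries, and the inhibitor bars of WT replicates 2 and 3, 196 and 183 FPKM, are taller by their *Cdkn1a* segment.

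The order of the mean levels differed between the genotypes in the place of *Cdkn1a* and in that of *Cdk6* and *Ccne1*. In both, *Cdk4* and *Ccnd2* led and their ranges over libraries overlapped, and *Ccne2* and *Ccnd1* came last, each apart from its neighbour. *Cdkn1a* ranked 3 of 10 in WT, where its range of 21.6 to 122 FPKM took in those of *Ccnd3*, *Cdkn1b*, *Cdk6*, *Ccne1* and *Cdkn2c*. It ranked 8 of 10 in KO, where its range overlapped those of *Cdkn2c* and *Cdk6*. In WT the ranges of *Cdkn1b*, *Cdk6* and *Ccne1* overlapped in turn. In KO the order was *Cdkn1b*, *Ccne1* and *Cdk6*, with no overlap of neighbours. WT replicate 1 on its own had the order of the KO means, so the differing order of the WT means rests on WT replicates 2 and 3.

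Beside the members, 7 lists of cell cycle genes were read out of the same fit, 134 genes tested in all. None was called (0 of 134 with limma, and 0 with voom on recovered reads). At an unadjusted p under 0.05, 10 were lower and 4 higher in KO with limma, beside 4.5% and 2.48% of all genes. With voom 13 passed, beside 830 of all 13312 genes. Without WT replicate 1, 22 were called lower and 6 higher, beside 5.75% and 3.64% of all genes.

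Of the 7 lists, the p53 target genes, a list without *Cdkn1a*, had the median farthest from 0, and 20 of its 22 genes were tested. The log2 fold change was below 0 in 17, beside 57.9% of all genes, and above 0 in 3, with a median of −0.42 beside −0.028 for all genes. At an unadjusted p under 0.05, 7 were lower and 1 higher, beside 4.5% and 2.48% of all genes, and none was called after adjustment with limma. With WT replicate 1 left out, 14 were called lower and 1 higher, beside 5.75% and 3.64% of all genes, with a median of −0.65.

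*Sesn2*, a stress-induced inhibitor of mTORC1 signalling, had an FPKM of 10.96, 32.5 and 30.0 in WT and 10.4, 10.6 and 10.2 in KO libraries. *Bax*, a pro-apoptotic pore protein of mitochondria, had 135, 219.5 and 210 FPKM in WT and 120, 134 and 136 FPKM in KO. *Plk2*, a polo-like kinase, had 2.83, 6.34 and 5.37 FPKM in WT and 2.52, 2.38 and 2.72 FPKM in KO. In these 3 genes WT replicates 2 and 3 were high, as for *Cdkn1a*, and WT replicate 1 lay within or just above the KO range. *Sesn1* ran the other way, with 33.7, 24.4 and 23.8 FPKM in WT and 32.1, 37.1 and 37.4 FPKM in KO.

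When WT replicate 1 was left out, *Sesn2* fell by 1.5, *Plk2* by 0.95 and *Bax* by 0.72 on the log2 scale and *Sesn1* rose by 0.54 (limma, adjusted p = 0.000714, 0.00799, 0.00653 and 0.0190). With all libraries their log2 fold changes were −1.02, −0.67, −0.50 and 0.38, none called (limma, adjusted p = 0.626 each). WT replicates 2 and 3 were the 2 highest libraries in 17 of 20 p53 target genes and in 6 of 9 members, beside 30.5% of all genes tested. This count was chosen after the values were seen.

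**Figure D4:**
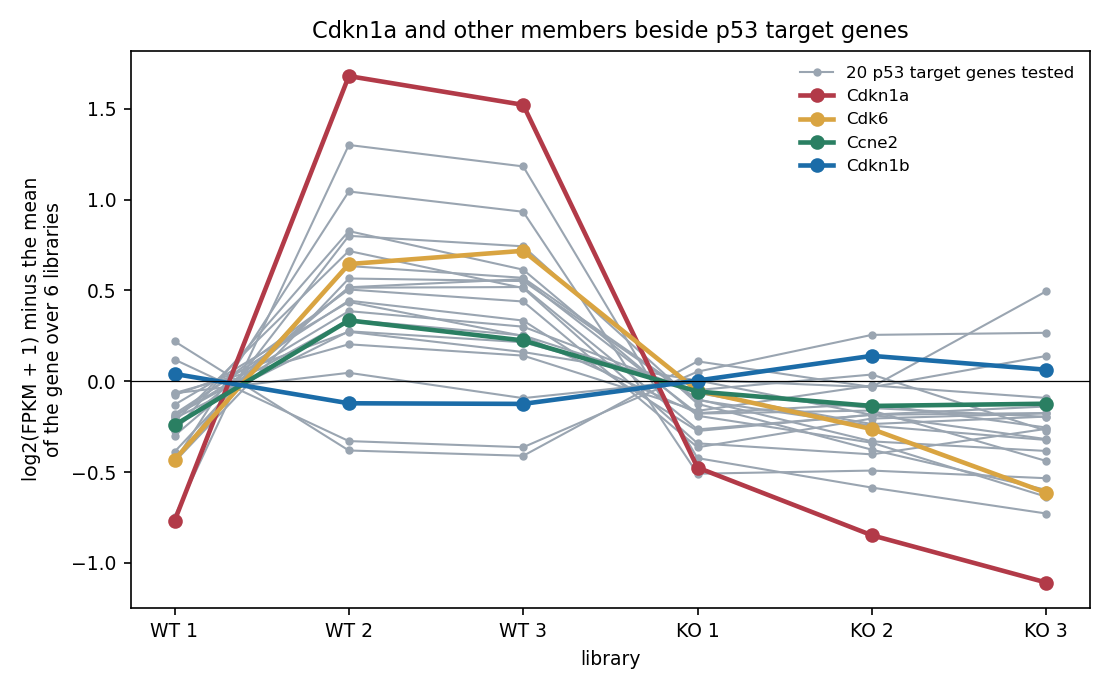
Log2(FPKM + 1) minus the gene's mean over the 6 libraries (vertical axis) in each library, for 20 p53 target genes (grey) and 4 members (colours). The lines join the values of a gene and mark no order of the libraries. *Cdkn1a* and 17 of the 20 grey genes have their 2 highest values in WT replicates 2 and 3, and *Cdkn1b* has its 2 lowest there.

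Marker genes of other cells also differed between these libraries, and their part in the *Cdkn1a*, *Cdk6* and *Ccne2* values was not tested. The 14 macrophage markers summed to 1215 to 2032 FPKM in WT and 1495 to 2908 FPKM in KO libraries, almost all of it *Apoe* and *Adgre1*. The other 12, set apart after the values were seen, summed to 18.8, 85.5 and 41.7 FPKM in WT and 9.76, 12.1 and 15.4 FPKM in KO libraries, led by *Lyz2* at 58.3 FPKM in WT replicate 2. *Fcgr1* was at 0 in the KO libraries and in WT replicate 3, and reached at most 0.122 FPKM in WT. *C1qb* and *C1qc* were at 0 in KO replicate 1. *Mrc1* had 0.938, 1.04 and 0.714 FPKM in WT and 0.966, 0.884 and 1.12 FPKM in KO, with overlapping groups. *Apoe* ran the other way from the sum of the 12, with 1953, 1091 and 1092 FPKM in WT and 1614, 1414 and 2837 FPKM in KO. The plasma cell regulator *Prdm1* was lowest in the libraries where *Cdkn1a* was highest, with 40.0, 17.1 and 16.7 FPKM in WT and 41.3, 29.2 and 55.9 FPKM in KO.

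The summed FPKM of the 8 plasma cell markers was 1940 to 2468 in WT and 2067 to 2850 in KO libraries. Neutrophil markers were near 0 outside WT replicate 1, where the 8 summed to 41.9 FPKM, and summed to at most 0.221 FPKM in KO libraries. Erythroid markers summed to 3.05 to 15.6 FPKM in WT and 2.91 to 4.72 FPKM in KO libraries, with *Hbb-bs* at 8.05 and 5.60 FPKM in WT replicates 2 and 3 and at most 0.829 FPKM elsewhere. Dendritic cell markers summed to 16.2 to 17.9 FPKM in WT and 12.1 to 12.95 FPKM in KO libraries. T-cell markers, 91.4 to 133 and 135 to 138 FPKM, and stromal and endothelial markers, 82.6 to 85.7 and 76.7 to 98.5 FPKM, had 1 of 8 genes above 1 FPKM each, *Lck* and *Pecam1*, while NK and innate lymphoid markers summed to 1.002 to 2.53 FPKM in WT and 1.43 to 2.42 FPKM in KO libraries, with *Gzma* at 0 in all.

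Downstream of the members, the 26 S phase genes under E2F control had the same division of libraries. The log2 fold change was below 0 in 24 of 26, beside 57.9% of all genes tested, with a median of −0.14. WT replicates 2 and 3 were the 2 highest libraries in 24, beside 30.5% of all genes, a count chosen after the values were seen. None was called with limma and all libraries, and 1, *Tyms*, which makes thymidylate, was lower at an unadjusted p under 0.05, beside 4.5% of all genes. Its FPKM was 35.4, 57.0 and 60.2 in WT and 37.2, 35.3 and 33.5 in KO libraries. In the fit without WT replicate 1, *Tyms*, *Uhrf1*, *Mcm10* and *Rrm2* fell (4 of 26, limma), beside 5.75% of all genes called lower. *Uhrf1* fell by 0.53 and *Rrm2* by 0.36 on the log2 scale in that fit, and with all libraries they were at −0.34 and −0.24 (limma, adjusted p = 0.626 each).

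The mitosis genes and the pocket proteins with E2F factors differed less. Of 20 mitosis genes, 17 were below 0, beside 57.9% of all genes, with a median of −0.10. Without WT replicate 1, *Mybl2* and *Ccnf* were called lower (2 of 20, limma). In that fit 5.75% of all genes were called lower and 9.4% in either direction. KO replicate 3 had the lowest list median of all libraries. Of 17 pocket protein and E2F genes, 12 were below 0, beside the same 57.9%, with a median of −0.10. *E2f7*, an atypical E2F repressor, fell without WT replicate 1 (1 of 17, beside 5.75% of all genes called lower). It was at −0.46 in that fit and −0.31 with all libraries (limma, adjusted p = 0.0441 and 0.626). *Rb1*, the main substrate of the CDK4 and CDK6 kinases, had 115, 118 and 110 FPKM in WT and 129, 114 and 116 FPKM in KO libraries, with overlapping groups.

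**Figure D5:**
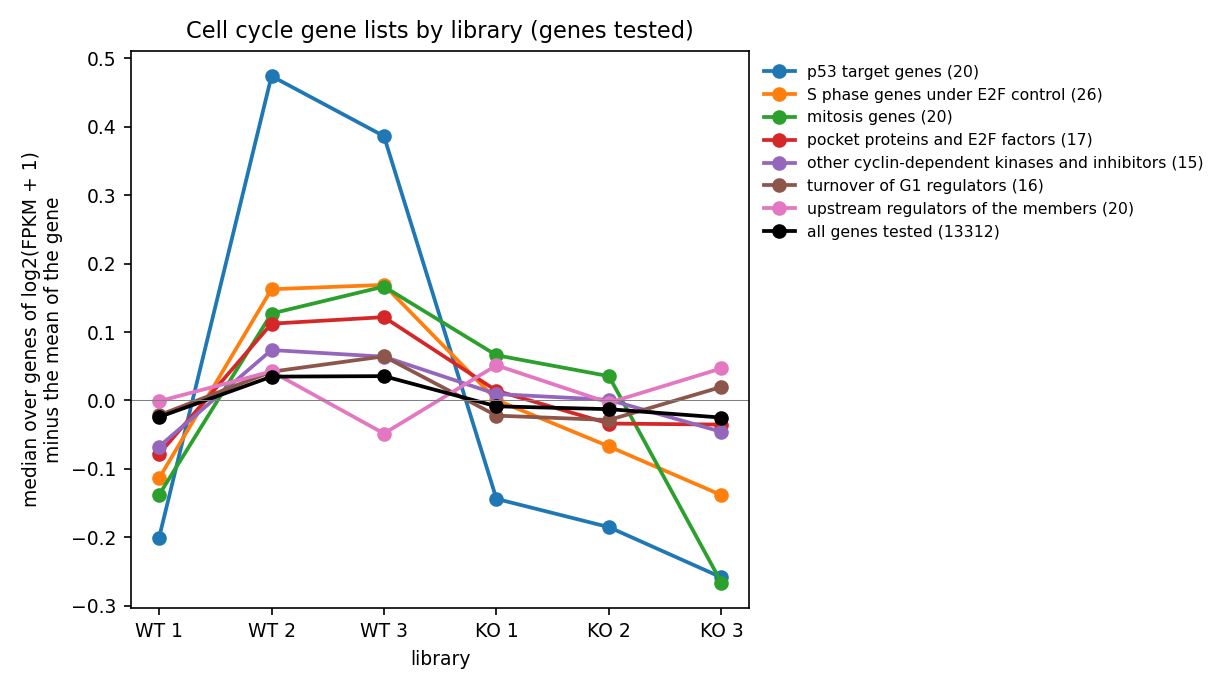
Median over the tested genes of a list of log2(FPKM + 1) minus each gene's mean (vertical axis) in each library, for 7 lists and all 13312 genes (black). The lines mark no order of the libraries. The p53 target genes stand highest in WT replicates 2 and 3, at 0.47 and 0.39, and the median of all genes stays between −0.025 and 0.036.

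Among the other kinases and inhibitors (15 tested), 9 were below 0, beside 57.9% of all genes, and 6 above, with a median of −0.063. *Pkmyt1* below 0 and *Cdkn2a* above 0 passed an unadjusted p under 0.05, 1 in each direction, beside 4.5% and 2.48% of all genes. *Cdkn2a*, the locus of p16 and p19Arf, had an FPKM of 5.19, 5.54 and 4.63 in WT and 6.81, 7.26 and 5.82 in KO libraries. KO was above WT throughout, as for 4.06% of all genes (log2 fold change 0.32, SE 0.11, limma, adjusted p = 0.626). *Cdkn2d*, which encodes a further INK4 inhibitor, had 37.6, 27.3 and 26.0 FPKM in WT and 30.9, 39.7 and 34.4 FPKM in KO, so that WT replicates 2 and 3 were lowest as for *Cdkn1b*. *Cdk2*, the partner of the E-type cyclins, had 43.6 to 48.1 FPKM in the 6 libraries. *Cdc25b*, a phosphatase that activates CDKs, rose by 0.63 on the log2 scale without WT replicate 1 (limma, adjusted p = 0.0135), the 1 of 15 genes then called, beside 3.64% of all genes called higher. With all libraries it was at 0.41 (limma, adjusted p = 0.626).

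Genes that control the turnover of the members had a median near that of all genes. Of 16 tested, 13 were below 0, beside 57.9% of all genes, and 3 above. The median of −0.029 was 0.0032 under median-ratio scaling, and none was called with limma with or without WT replicate 1. *Skp2*, whose product marks p27 for degradation, had 5.52, 7.43 and 7.404 FPKM in WT and 6.52, 6.38 and 5.60 FPKM in KO libraries. Its cofactor *Cks1b* had 110.5 to 124 FPKM in the 6 libraries. *Fbxw7*, whose product marks cyclin E, had 9.91 to 11.1 FPKM, and its log2 fold change of −0.026 was above 0 under median-ratio scaling and quantile normalization.

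Of 20 upstream regulators tested, 9 were below 0, beside 57.9% of all genes, and 11 above, with a median of 0.0054. *Myc*, an inducer of D-type cyclins and *Cdk4*, had an FPKM of 32.4, 49.2 and 51.7 in WT and 30.8, 30.0 and 35.8 in KO libraries. *Foxo1*, an activator of *Cdkn1b*, ran the other way, with 31.5, 23.4 and 22.97 FPKM in WT and 33.8, 30.7 and 34.7 FPKM in KO. *Trp53*, the gene of p53, had 99.8, 119.9 and 124 FPKM in WT and 94.0, 106 and 97.7 FPKM in KO. WT replicates 2 and 3 were the extreme libraries in all 3 genes.

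With all libraries none of the upstream regulators was called by limma, with *Myc* at −0.43, *Foxo1* at 0.35 and *Foxp1* at 0.31 on the log2 scale (adjusted p = 0.626 each), *Klf2* at 0.26 (adjusted p = 0.640) and *Ikzf3* at 0.19 (adjusted p = 0.626). In the fit without WT replicate 1, *Myc* fell by 0.64 (limma, adjusted p = 0.0150), while *Foxo1* rose by 0.49, *Foxp1* by 0.44, *Klf2* by 0.45 and *Ikzf3* by 0.28 (limma, adjusted p = 0.0173, 0.0126, 0.0220 and 0.0389). This made 1 of 20 lower and 4 of 20 higher, beside 5.75% and 3.64% of all genes. *Trp53* was at −0.20 with all libraries and at −0.30 without WT replicate 1 (limma, adjusted p = 0.626 and 0.0506).

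Further motifs were searched on both strands of the RefSeq promoter windows, since several regulators above bind known letters. The HIF core, ACGTG or GCGTG, was present in 8 of the 10 windows of the members and in a window of each of the 7 genes, beside 43.8% of all windows. The E-box CACGTG, bound by MYC and MAX, which contains the HIF core, was present in windows of *Cdk4*, *Cdk6* and *Cdkn2c*, beside 7.15% of all windows. The E2F letters TTTCCCGC, TTTGGCGC and TTTCGCGC were in none of the 10 windows, beside 1.84% of all windows. Of the 22 p53 target genes, 16 had a window. A p53 half-site was in a window of 9 of these genes, and the pair was in a window of 0. These counts are of genes, which can have several windows, and cannot be set against a share of windows.

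The *Cdk6* stretch is shown because *Cdk6* and *Myc* were both highest in WT replicates 2 and 3. So were 30.5% of all genes tested, and a link between *Myc* and *Cdk6* was not tested. The stretch lies on the plus strand at chr5:3343643-3343731, ends before the first GENCODE exon in the window, and has the E-box in capitals, 214 bases before the listed start. It is inside the annotated span of *Cdk6*, which begins at 3341485, so the listed start at 3343893 is not the first GENCODE start of the gene.
*Cdk6*: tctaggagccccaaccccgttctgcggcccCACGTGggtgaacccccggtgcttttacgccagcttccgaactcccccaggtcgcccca

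Over the 6 libraries, log2(FPKM + 1) of *Cdkn1a* had a Pearson's r of 0.98 with *Cdk6*, 0.96 with *Ccne2* and −0.93 with *Cdkn1b*. These values are a description, since the libraries fall into separate clusters and all genes share them. The tested genes most like *Cdkn1a* were *Mlkl*, *Lars* and *Hmcn2* (r = 0.998 each), and 764 genes had an r above 0.95. Those most like *Cdk6* were *Nol6*, *Ska3* and *Ubr2* (r = 0.998 each, 788 genes above 0.95), and those most like *Ccne2* were *Fam98b*, *Adam9* and *Csnk1g1* (r = 0.997, 0.997 and 0.993, 436 genes above 0.95).

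The other members had fewer like genes, again over 6 libraries. *Cdkn1b* was closest to *Anxa1*, *Elk3* and *Zer1* (r = 0.996, 0.996 and 0.995, 158 genes above 0.95), and *Ccne1* to *Hnrnpa1*, *Tagap* and *Sass6* (r = 0.998, 0.998 and 0.996, 237 genes). *Cdkn2c* was closest to *Alg3*, *Hacd2* and *Eif1*, with 75 genes above 0.95, *Cdk4* to *Nr1d2*, *Csrnp2* and *Rad51d*, with 59, *Ccnd3* to *Limk2*, *Ppm1m* and *Phf12*, with 38, and *Ccnd2* to *Uqcrc2*, *Gm16024* and *Ttll5*, with 13.

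Several members share exon sequence with genes on the opposite strand, whose reads cannot be told apart without strand. Beside *LTO1* and *Ints8*, these were *Bysl* at *Ccnd3*, with 9.35 to 12.5 FPKM, and *Tspan31* at *Cdk4*, with 26.8 to 31.4 FPKM. Antisense genes at *Ccnd2* and *Cdk6* reached at most 0.552 and 0.115 FPKM. *Ccne1*, *Cdkn1b* and *Cdkn2c* had no such neighbour, and the one at *Cdkn1a* was not in the table used here. *Ccnd3* has a processed pseudogene, *Ccnd3-ps*, and how the counting split reads between near-identical copies is not given in the sources used here.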

How the data were processed

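The 6 bulk RNA-seq libraries, 3 per genotype, were used with groups and replicate numbers from the sample labels. The authors filtered the paired-end reads, aligned them to mm10 with TopHat, counted reads per gene with HTSeq, and deposited FPKM values in 1 column per library. The sources used here do not give the gene annotation, whether counting used strand, how multiply aligned reads were treated, or whether libraries were scaled. No per-sample column was left out, and the authors' test of their counts, made with DESeq, was not used.

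Symbols and coordinates came from GENCODE vM21, which matched 46488 of 46983 identifiers. The depth of 25030210 to 37222477 reads per library was read from the FPKM values of genes with a single annotated transcript. With that depth held fixed, whole reads were recovered for 25715 of the 25717 genes above 0 (tolerance 0.02 reads). For each gene the shortest length that gave whole reads in the libraries was taken. For a single gene, values resting on few reads carry counting error.

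For the test, limma 3.58.1 in R 4.3.3 (lmFit, then eBayes with trend) was run on log2(FPKM + 1), a pseudocount of 1, over genes averaging at least 0.5 FPKM, without covariates or scaling. A gene was called where its p, adjusted by Benjamini-Hochberg over 13312 genes, was under 0.05. The script was checked on simulated data. The replicate number was not used as a block in this test. Not every pair of same-numbered libraries of the 2 genotypes deviated together, which cannot decide whether they were paired, and the labels do not say. The rest was done with numpy 2.4.6, pandas 2.3.3 and matplotlib 3.10.9 in Python 3.11.15.

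The members, the 7 gene lists (p53 targets, S phase, mitosis, pocket proteins and E2F factors, other CDKs and inhibitors, turnover, upstream regulators) and the marker lists (B, T, plasma, dendritic and erythroid cells, neutrophils, macrophages, NK with innate lymphoid cells, stroma with endothelium) were written from general knowledge and were chosen with earlier results of these data known. Named are the members, *Hif1a*, from each of the 7 lists at most 4 genes by smallest unadjusted p and genes whose products bind, degrade or control a named member, the most abundant markers, and the 3 genes most correlated with each member. *Klf2*, *Ikzf3*, *Prdm1*, the complement genes, *Fcgr1*, *Mrc1* and *Gzma* were named after their values were seen. *Skp1* had no match and was counted as *Skp1a*.

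As alternatives, the pseudocount was set to 0.1, the filter to any value above 0 or to a mean of 5 FPKM, libraries were scaled by median ratios or quantiles, eBayes was run without trend or robustly, the replicate number was a block, libraries were left out singly, weights came from arrayWeights, and voom was run on recovered reads. Promoter windows came from RefSeq (GRCm38.p6), and no window was used for *Ccnd1*, *Ccnd2* and *Ccne2*.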

Additional observations from a re-analysis of the deposited data

How the results depend on the processing

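The 9 members kept their direction in all 17 fits, and 0 were called in 14 of the 16 alternatives. Leaving out 1 library gave 0 to 3 members called, 0 to 28 genes of the 7 lists, 0 to 1251 of all genes, and 1 to 7 members without overlap of the groups. WT replicate 1 gave each of these highest values, and without KO replicate 1, 2 or 3 the groups did not overlap in 4, 2 and 2 members, beside 20.1, 21.3 and 19.2% of all genes. With library weights 2 members were called, *Cdkn1a* at −2.23 and *Cdk6* at −0.87 (limma, adjusted p = 0.0312 and 0.0366), with 34 genes of the lists and 1449 of all genes. The weights were estimated from these libraries. The replicate block called 0 members and 0 of all genes. Same-numbered libraries had correlations of their deviations of −0.099, 0.14 and −0.28, and not every library correlated best with its own number. These values cannot decide whether same-numbered libraries were paired, since WT replicate 1 sets much of the WT deviations. The labels do not say.

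Of 735 values for 46 named genes in the 16 alternatives, 691 had the same direction and call, 38 became called and 6 changed sign. *Fbxw7*, at −0.026 with all libraries, was at 0.0055 under median-ratio scaling and 0.0083 under quantile normalization, and ranged from −0.069 to 0.0054 (without WT replicate 2) with 1 library left out. *Cdk2*, at 0.011, then ranged from −0.023 (without KO replicate 2) to 0.047 and was also below 0 without WT replicate 1 or 2. The adjusted p of *Cdkn1a* ranged from 0.0030 to 1 over the fits. *Ccnd1*, on 16 to 32 reads, was limited by depth. Why WT replicate 1 differed from the other WT libraries was not tested.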
